A study of Mus musculus with 10 samples.

Results

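The 6 oocyte-secreted factors described here are growth differentiation factor 9 (Gdf9), bone morphogenetic protein 15 (Bmp15), fibroblast growth factor 8 (Fgf8) and the oocyte-secreted proteins Oosp1, Oosp2 and Oosp3. They were chosen by name, and all 6 were found among the 22891 genes of the deposited table by their Ensembl identifiers. The values come from whole ovaries of 3-week-old mice of a C57/Bl6/N;129SvEv7 strain that had not been stimulated with hormones. The 10 sequenced ovaries carried the label control (5) or Uba3 cKO (5), Uba3 being the catalytic part of the E1 enzyme for the ubiquitin-like protein NEDD8. The labels name neither the Cre driver, the deleted exons nor the genotype of the controls, nor whether each ovary had its own donor mouse, so a p-value here reflects only how far these samples spread, which may be technical. The study's title links neddylation with mitochondrial transcription and oocyte quality.

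An oocyte directs the somatic cells around it through proteins that it secretes. GDF9 and BMP15 are ligands of the TGF-beta superfamily that are made as proproteins, are cut by convertases and act as dimers on receptor kinases of granulosa cells, which signal through SMAD proteins. FGF8 acts on FGF receptor tyrosine kinases and cooperates with BMP15 in promoting glycolysis in cumulus cells. The OOSP proteins are a small secreted family whose genes are expressed in oocytes, and their roles in the ovary are less well understood. In a whole ovary the level of such a transcript depends both on the amount of oocyte RNA in the library and on its content per oocyte, and fewer oocytes and less RNA per oocyte cannot be told apart.

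Values are given on the log2 scale of the deposited table, and the sequencing depth behind them is unknown. A fold printed here is 2 to the power of a difference on that scale, and for low genes, whose values appear drawn together in the table, it may understate the fold in RNA. Library medians lay between 6.29 and 6.44. All 35 fixed oocyte marker genes, none of them among the 6 factors, were measured, and their mean, called the oocyte marker level below, ran from 9.14 to 9.80 in control libraries and from 8.96 to 9.69 in Uba3 cKO libraries. Granulosa markers averaged 13.42 to 13.67 over all libraries, stromal markers 10.06 to 11.05 and immune markers 4.79 to 5.19. Control replicate 3 stood apart in how its deviations varied with transcript length, with a slope of -0.15 per doubling of length against -0.060 to 0.058 in the other libraries, so that short transcripts read relatively high in it. The targeted gene, Uba3, read 10.17, 10.09, 9.88, 10.37 and 10.09 in control replicates 1 to 5 and 10.12, 10.13, 10.12, 10.03 and 10.22 in Uba3 cKO replicates 1 to 5, a difference of 0.0032 (exact two-sided permutation test, p = 1). Uba3 had been planned as a check of the labels, and no lower level was seen under the Uba3 cKO label. Its level is summed over all exons and cells of the ovary, and the deleted exons and the Cre driver are not given. It could therefore neither bear out nor contradict the labels. From here on, a pair of values with ± is the mean and SD of the 5 control libraries followed by that of the 5 Uba3 cKO libraries.

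The factors spanned a wide range of abundance. Gdf9 (ENSMUSG00000018238, chromosome 11) was the most abundant, with a mean of 12.27 over the 10 libraries, higher than 98.0% of all genes in the table. Bmp15 (ENSMUSG00000023279, chromosome X) had a mean of 11.04, above 92.8% of genes. The 3 Oosp genes lie next to each other on chromosome 19 and had means of 9.45 for Oosp1 (ENSMUSG00000041857), 6.90 for Oosp2 (ENSMUSG00000055895) and 7.88 for Oosp3 (ENSMUSG00000055933). Fgf8 (ENSMUSG00000025219), also on chromosome 19, was the lowest at 5.90, near the middle of the table, with 47.3% of genes below it. All 6 passed the filter on low values. Corrected for exon length, as log2 level per kilobase, the order was Gdf9 at 11.25 ± 0.28 (SD over 10 libraries), Oosp1 at 9.49 ± 0.34, Bmp15 at 9.43 ± 0.21, Oosp3 at 8.16 ± 0.23, Oosp2 at 7.46 ± 0.21 and Fgf8 at 5.47 ± 0.21. Oosp1 and Bmp15 were not separated on this scale, with a mean difference of 0.061 ± 0.20 and the higher value for Oosp1 in 6 of 10 libraries. Each other neighbouring pair in this order kept its order in 10 of 10 libraries. Exon lengths came from GENCODE M21 on the GRCm38 build, from 678 bases for Oosp2 to 3060 for Bmp15, so the order carries any difference from the gene models that were used for counting.

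Gdf9, without which follicles stop growing at the primary stage, is the best-known of these genes. In control replicates 1 to 5 its log2 values were 11.93, 12.50, 12.67, 12.13 and 12.29. Under the Uba3 cKO label replicates 1 to 5 read 12.58, 12.38, 11.94, 12.40 and 11.89. High and low libraries occurred in both groups and the groups overlapped over nearly the whole range. The means were 12.30 ± 0.30 and 12.24 ± 0.30 (SD, n = 5 each), a log2 difference of -0.064 (standard error 0.16), and the 95% interval bounds the fold between 0.756 and 1.21.

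Bmp15, the partner of GDF9 on the X chromosome, was 10.74, 11.11, 11.31, 11.001 and 11.23 in control replicates 1 to 5. Its values were 11.21, 11.18, 10.84, 11.13 and 10.72 in Uba3 cKO replicates 1 to 5. The lowest library of each group, control replicate 1 and Uba3 cKO replicate 5, were almost level, and the groups overlapped. The log2 difference was -0.062 (standard error 0.12), with the fold between 0.801 and 1.15.

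Fgf8 was 5.70, 5.84, 6.43, 5.88 and 5.79 in control replicates 1 to 5 and 5.93, 5.80, 5.81, 6.08 and 5.75 in Uba3 cKO replicates 1 to 5. Control replicate 3 lay above the other libraries, and the remaining 9 were between 5.70 and 6.08. The log2 difference was -0.054 (standard error 0.13, fold between 0.793 and 1.17). Without control replicate 3 it was 0.071 (standard error 0.088), with the opposite sign.

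Oosp1, the most abundant of the Oosp genes, varied most among the 6 factors, with a 2.20-fold range over the libraries. It read 9.001, 9.57, 10.14, 9.12 and 9.44 in control replicates 1 to 5 and 9.80, 9.49, 9.26, 9.53 and 9.15 in Uba3 cKO replicates 1 to 5. The Uba3 cKO values all fell inside the control range. The log2 difference was -0.0056 (standard error 0.19, fold between 0.750 and 1.32), and 0.17 (standard error 0.14) without control replicate 3.

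Oosp2 was 6.55, 6.84, 7.24, 6.88 and 6.81 in control replicates 1 to 5 and 7.20, 7.02, 6.79, 6.85 and 6.78 in Uba3 cKO replicates 1 to 5. Of the 6 factors it alone was higher on average in Uba3 cKO libraries, by 0.065 (standard error 0.13, fold between 0.863 and 1.27). Oosp3 was 7.53, 7.87, 8.37, 7.82 and 7.86 in control replicates 1 to 5 and 7.96, 7.93, 7.62, 8.01 and 7.87 in Uba3 cKO replicates 1 to 5. Its log2 difference was -0.012 (standard error 0.14, fold between 0.809 and 1.22), and 0.11 (standard error 0.10) without control replicate 3. For both genes the Uba3 cKO values lay within the control range.

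**Figure D1:**
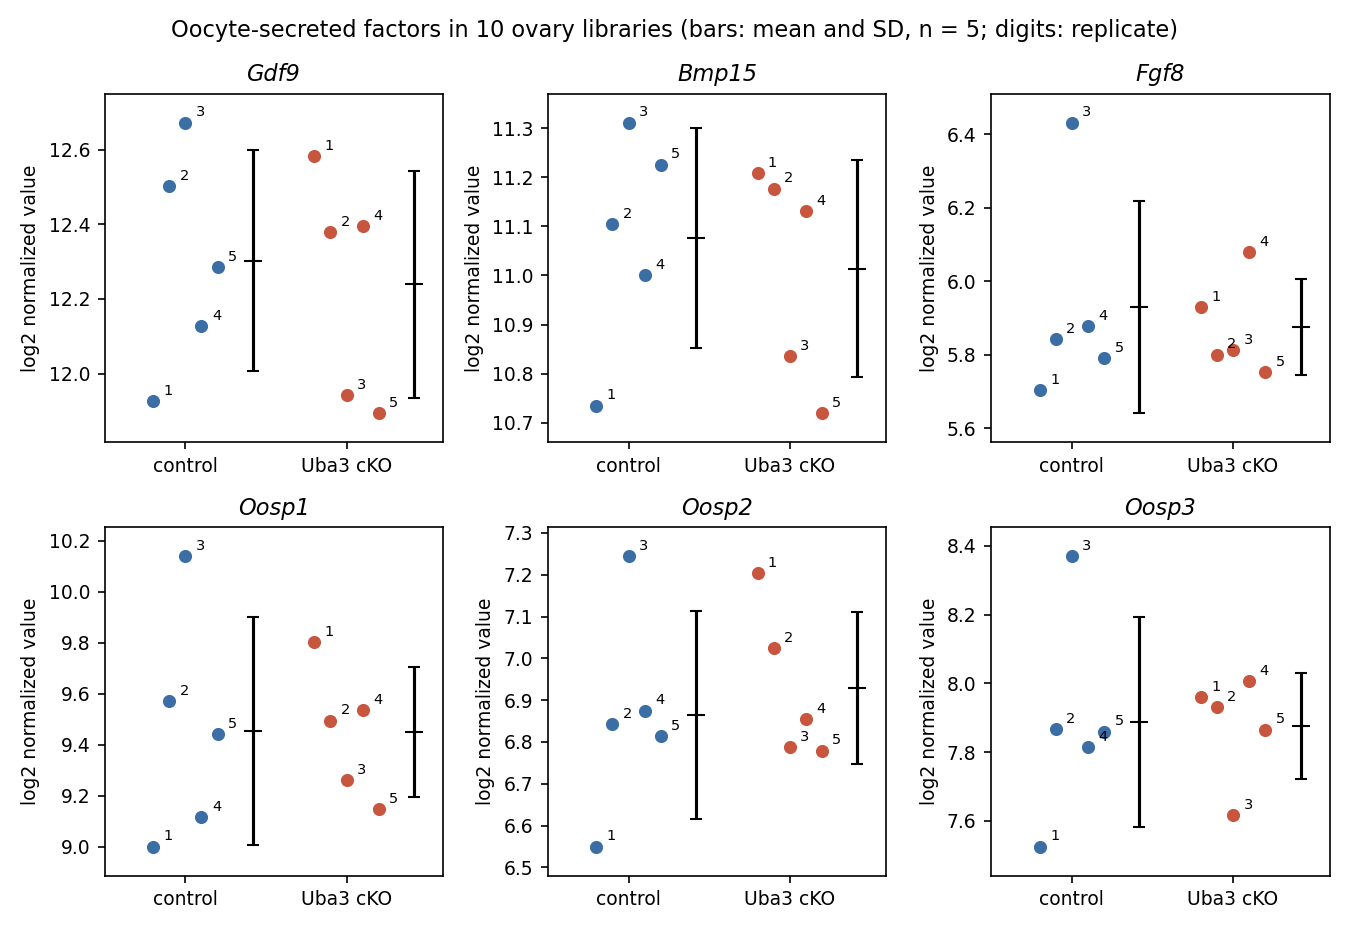
Log2 normalized value of each factor (y axis, a separate scale per gene) in 5 control and 5 Uba3 cKO libraries (x axis), with the replicate number beside each point and the mean and SD of each group as a bar. The groups overlap for all 6 genes, and control replicate 3 holds the highest value of each.

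None of the 6 factors differed between the groups beyond the spread of the libraries. By limma 0 of 6 passed an adjusted p of 0.05 (each adjusted p = 0.9999) and 0 of 6 were at an unadjusted p under 0.05, where 0% of the 15629 genes tested were called and 1.79% were at an unadjusted p under 0.05. Exact two-sided permutation p-values ran from 0.667 for Bmp15 to 0.992 for Oosp1, in a design whose smallest possible p is 0.00794. The lower mean stood under the Uba3 cKO label for 5 of 6 factors, and their median difference was -0.033, beside a median of 0.00034 over all genes tested. The data bound each difference rather than show that the levels were equal. The widest 95% interval, that of Oosp1, ran from -0.41 to 0.40, and the narrowest, that of Bmp15, from -0.32 to 0.20. Differences of the lower genes Fgf8, Oosp2 and Oosp3 may be understated on the deposited scale.

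Ratios between the factors did not separate the groups either. GDF9 and BMP15 act together, and the log2 ratio of Bmp15 to Gdf9 within a library was -1.23 ± 0.15 and -1.22 ± 0.10 (exact two-sided permutation p = 0.968). This ratio had a narrow range, from -1.40 in control replicate 2 to -1.06 in control replicate 5. For Fgf8 to Gdf9 the ratio was -6.37 ± 0.20 and -6.36 ± 0.24 (exact permutation p = 0.889). Oosp1 to Gdf9 gave -2.85 ± 0.19 and -2.79 ± 0.084 (exact permutation p = 0.556). The ratio of Oosp2 to Oosp1 was -2.59 ± 0.25 and -2.52 ± 0.12 (exact permutation p = 0.571), and that of Oosp3 to Oosp1 -1.57 ± 0.19 and -1.57 ± 0.20 (exact permutation p = 0.968). Each of these 5 ratios was also compared without each of the 10 libraries in turn, and 1 of these many comparisons passed an unadjusted 0.05. Without control replicate 3, which had the highest Oosp1 to Gdf9 ratio at -2.53, that ratio was higher under the Uba3 cKO label by 0.14 (exact two-sided permutation p = 0.0476, unadjusted).

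The factors rose and fell together from library to library. Control replicate 3 had the highest value of all 6 and also the highest oocyte marker level, 9.80. The lowest value was in control replicate 1 for 4 factors and in Uba3 cKO replicate 5 for the other 2, Gdf9 and Bmp15, and these libraries had oocyte marker levels of 9.14 and 8.96, the lowest of their groups. All 6 factors lay above their own mean in control replicate 3 and Uba3 cKO replicate 1, and none did in control replicates 1 and 4 or Uba3 cKO replicates 3 and 5. The match to the marker level was not close in every library. Control replicate 4 also had a marker level of 9.14. The median deviation of the 6 factors from their means was -0.055 in that library, against -0.35 in control replicate 1. In control replicate 2, at a marker level of 9.75, 3 of 6 factors lay above their mean. The range over the 10 libraries was 1.72-fold for Gdf9, 1.51-fold for Bmp15 and 1.66-fold for Fgf8. Gdf9 and Oosp1 had a larger SD over the libraries than 93.4% and 97.1% of the genes within 0.5 log2 units of their level. For Bmp15 this share was 90.0%, for Oosp3 78.5%, for Fgf8 67.5% and for Oosp2 63.7%.

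To place this variation beside that of other oocyte transcripts, each gene was fitted on the group and on the oocyte marker level. A slope of 1 means that a gene followed the markers in proportion. Gdf9 rose with the marker level with a slope of 0.89 (standard error 0.11, 95% interval 0.65 to 1.12, adjusted p = 0.00202 by limma over all genes). The marker level accounted for 92.0% of its variance within groups. Oosp1 rose with a slope of 0.99 (standard error 0.18, interval 0.60 to 1.37, adjusted p = 0.0137), and Bmp15 with a slope of 0.60 (standard error 0.12, interval 0.33 to 0.87, adjusted p = 0.0250). Among these 3 factors the intervals of Gdf9 and Oosp1 include 1, whereas that of Bmp15 lies below it. The markers that make up the level had slopes from 0.49 (Oog1) to 1.41 (Dazl), a range that holds the slope of Bmp15. Whether the slopes of the factors differ from each other was not tested. Thus 3 of 6 factors were called with a positive slope, where 2.22% of all genes were called positive and 0.339% negative. Markers of some other cell types also had positive slopes: 5 of 5 endothelial (median 0.61), 5 of 5 stromal (median 0.34) and 4 of 4 smooth muscle markers (median 0.20). Of surface epithelium and oviduct markers 5 of 6 did (median 0.39), of theca markers 3 of 5 (median 0.029) and of immune markers 3 of 5 (median 0.018). Positive slopes were fewer among granulosa markers, 2 of 8 (median -0.18), and erythroid markers, 1 of 4 (median -0.32). None of these markers was called, and 7596 of all 15629 genes tested had a positive slope. The part of these cells in the slopes of the factors was not tested.

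The other 3 factors, which had the lowest levels of the 6, had positive slopes that were not called. The part of the drawing together of low values in these slopes was not tested. Oocyte markers with means below that of Oosp3 had slopes of 0.49 (Oog1) and from 0.76 (Omt2b) to 1.09 (Sohlh1). These markers are themselves part of the marker level. Oosp3 had a slope of 0.51 (standard error 0.19, adjusted p = 0.177 by limma), Oosp2 of 0.47 (standard error 0.18, adjusted p = 0.190) and Fgf8 of 0.44 (standard error 0.19, adjusted p = 0.235). Their 95% intervals were 0.10 to 0.92, 0.080 to 0.86 and 0.029 to 0.85. Not adjusted for the number of genes, these intervals lay above 0 and, like that of Bmp15, below 1. Control replicate 3 weighed on these slopes, since without it the slope was 0.32 for Oosp3, 0.33 for Oosp2 and 0.22 for Fgf8. Oosp1 also had a lower slope without it, 0.77, and was still called. Exon lengths of Oosp1, Oosp2, Oosp3 and Fgf8 were above only 4.89%, 2.50%, 3.62% and 8.55% of the genes tested, and the part of length in these slopes was not tested. With the libraries' length slope as a further covariate, chosen after seeing the data, the slopes were 0.38, 0.30 and 0.27 for Oosp3, Oosp2 and Fgf8, and 0.83, 0.60 and 0.77 for Gdf9, Bmp15 and Oosp1. The call of Bmp15 was lost in 6 of 10 fits that leave out 1 library (adjusted p from 0.0205 to 0.150), whereas Gdf9 and Oosp1 were called in all 10. With the replicate number as a block, a fit with fewer residual degrees of freedom, none of these 3 was called. The adjusted p by limma was then 0.0578 for Gdf9, 0.0578 for Oosp1 and 0.137 for Bmp15. With the marker level taken from the zona pellucida genes Zp1, Zp2 and Zp3 alone, Gdf9 was still called (slope 0.66, adjusted p = 0.0249 by limma), but Oosp1 (slope 0.62, adjusted p = 0.185) and Bmp15 (slope 0.47, adjusted p = 0.0523) were not.

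**Figure D2:**
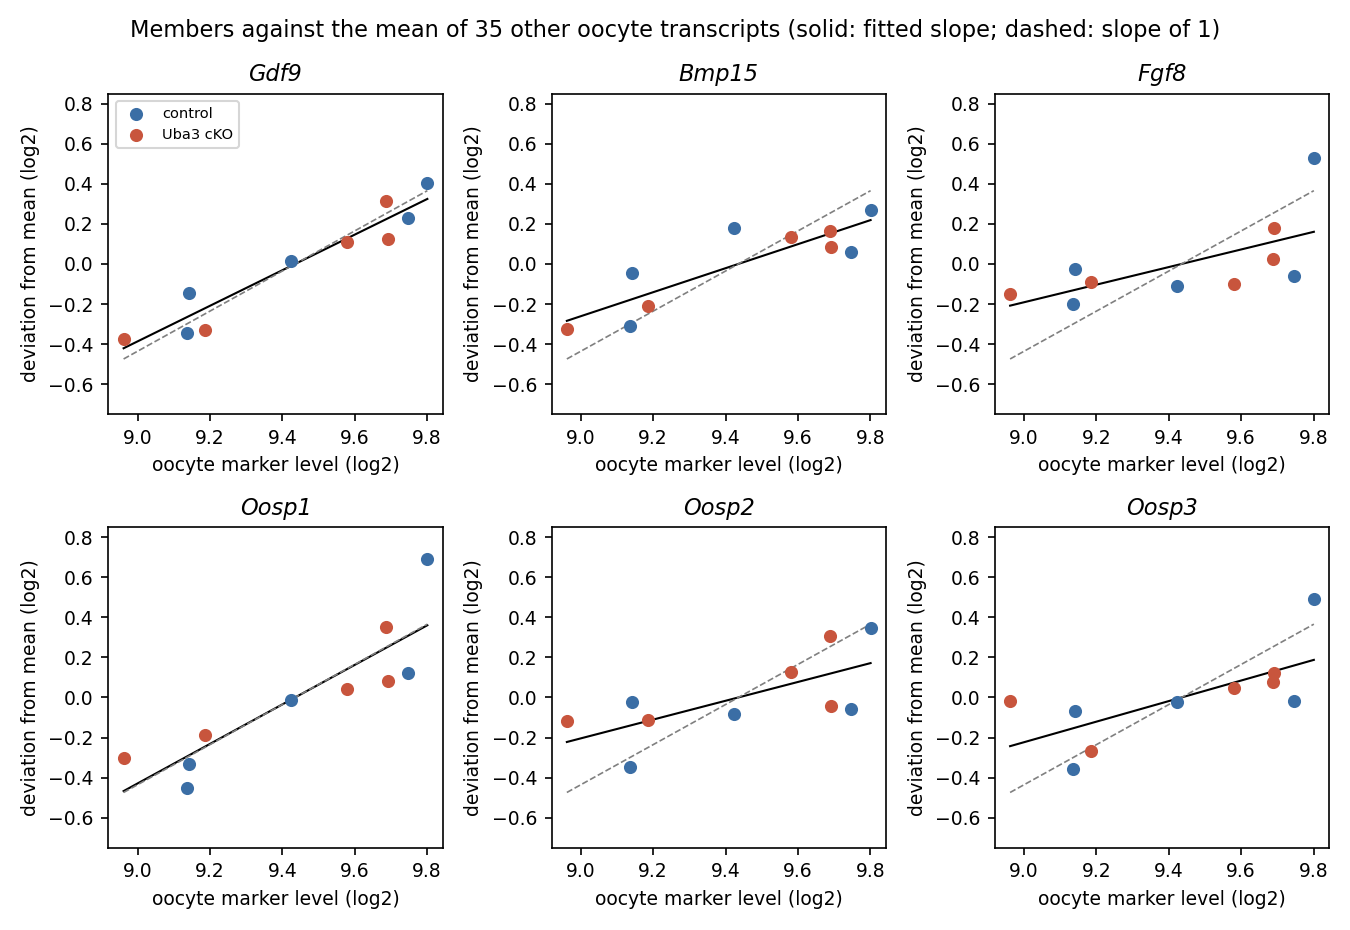
Deviation of each factor from its mean over 10 libraries (y axis, log2) against the mean of 35 other oocyte transcripts (x axis, log2), with control libraries in blue and Uba3 cKO libraries in red. The solid line has the fitted slope, 0.89 for Gdf9 and 0.44 for Fgf8, and the dashed line a slope of 1; the rightmost point in each panel is control replicate 3, at a marker level of 9.80.

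At equal oocyte marker level the groups again did not separate. The log2 difference was -0.039 for Gdf9 (standard error 0.063, 95% interval -0.18 to 0.098), which is a narrower interval than without the marker level. It was -0.045 for Bmp15 (standard error 0.071), -0.042 for Fgf8 (standard error 0.11) and 0.023 for Oosp1 (standard error 0.10). Oosp2 differed by 0.078 (standard error 0.10) and Oosp3 by 0.0027 (standard error 0.11). By limma 0 of 6 were called and 0% of all genes were (459 genes at an unadjusted p under 0.05, none of them among the 6 factors). The slope on the marker level was also compared between the groups. Gdf9 had slopes of 0.89 (standard error 0.16) in controls and 0.88 (standard error 0.16) under the Uba3 cKO label, and Bmp15 of 0.54 and 0.66. For Oosp1 they were 1.29 and 0.70, a difference of -0.58 (standard error 0.33, unadjusted p = 0.1004, adjusted p = 0.817 by limma). Of the 6 factors 0 were called in this test, as were 0% of all genes.

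**Figure D3:**
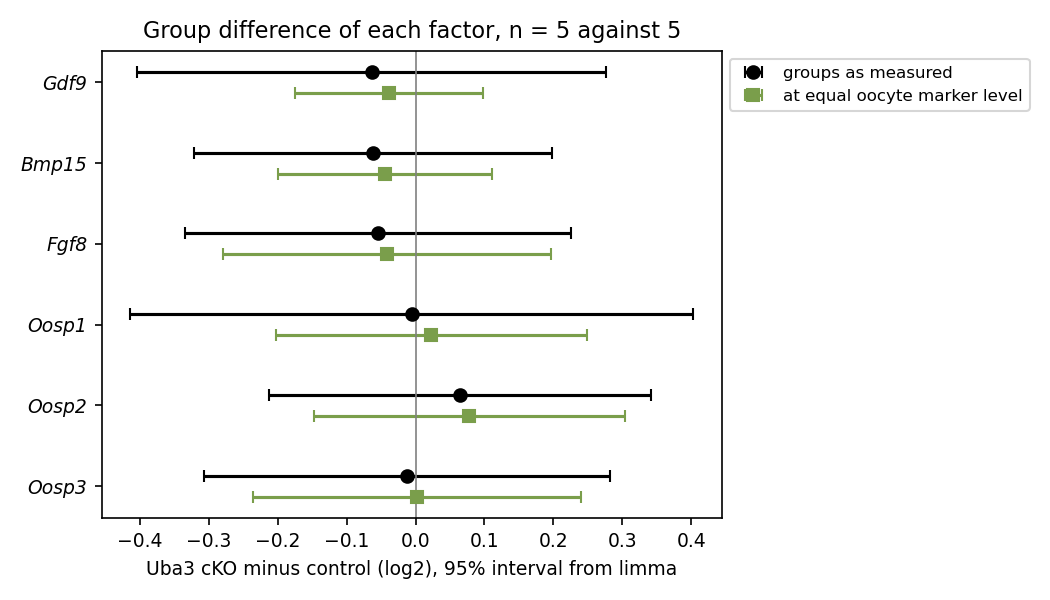
Log2 difference of each factor, Uba3 cKO minus control (x axis), with its 95% interval from limma, as measured (black circles) and at equal oocyte marker level (green squares), n = 5 against 5. All 12 intervals include 0, and for Gdf9 the interval narrows from -0.40 to 0.28 to -0.18 to 0.098.

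The likeness of the factors to each other was described by Pearson's r over the 10 libraries; all genes were read in the same libraries and carry the same differences in oocyte content between them. It was highest between Gdf9 and Bmp15 (r = 0.93) and between Gdf9 and Oosp1 (r = 0.92), and lowest between Bmp15 and Fgf8 (r = 0.62). Among the neighbouring Oosp genes r was 0.88 for Oosp1 with Oosp2, 0.87 for Oosp1 with Oosp3 and 0.83 for Oosp2 with Oosp3. Leaving out control replicate 3 gave 0.80, 0.73 and 0.73 for these pairs. Fgf8 was most like Oosp3 (r = 0.87). Without control replicate 3 the value of Gdf9 with Bmp15 was 0.91 and that of Fgf8 with Oosp3 was 0.66. Fgf8 with Oosp1 fell from 0.81 to 0.58 and Fgf8 with Oosp2 from 0.70 to 0.48 without it, while Fgf8 with Gdf9 went from 0.68 to 0.59 and with Bmp15 from 0.62 to 0.54.

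**Figure D4:**
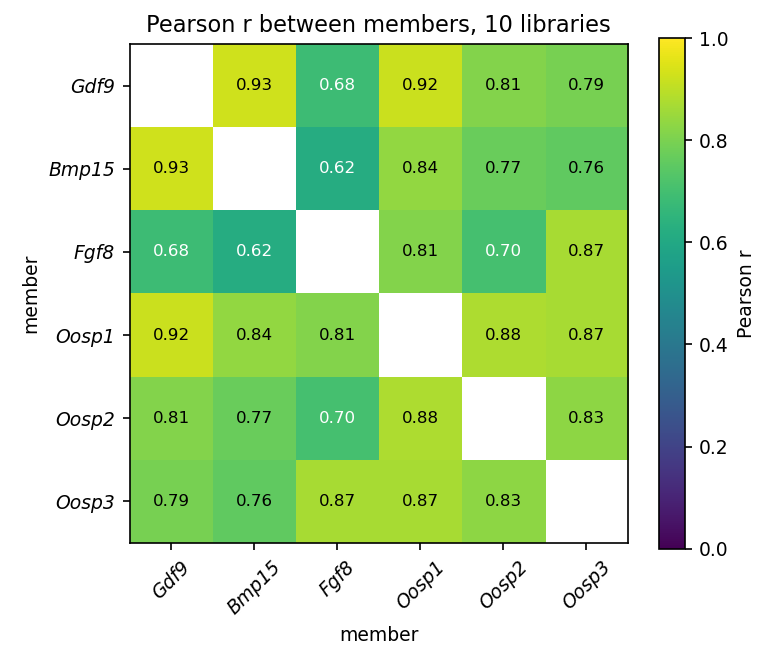
Pearson's r between each pair of factors over the 10 libraries, printed in each cell and coloured from 0 to 1 with the same genes on both axes. The values run from 0.62 for Bmp15 with Fgf8 to 0.93 for Gdf9 with Bmp15.

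Among 9209 genes ranked by likeness, those nearest to Gdf9 were Cpsf4l, Ybx2, a germ cell Y-box protein that binds RNA, and Fbxw24, an F-box gene (r = 0.98, 0.98 and 0.97). Bmp15 ranked 40 on that list and Oosp1 ranked 50. Nearest to Bmp15 were Fbxw19, Nlrp9c and Fam160a1 (each r = 0.96), with Gdf9 at rank 8. Oosp1 was most like Zfp57, a zinc finger protein that maintains imprints, Cd164l2 and H1foo, the linker histone of the oocyte (r = 0.98, 0.97 and 0.97). Of the first 100 genes 14 were oocyte markers for Gdf9, 13 for Oosp1 and 11 for Bmp15, of 25 markers ranked, beside 1 for Fgf8, 3 for Oosp2 and 4 for Oosp3. The genes nearest to Oosp2 were Eloc, Mif4gd and Oser1 (r = 0.94, 0.93 and 0.91), and those nearest to Oosp3 were Aurka, a mitotic and meiotic kinase, Emc8 and Asf1b (r = 0.98, 0.94 and 0.93). Fgf8 was nearest to Twf2, Pced1b and Rcc1l (r = 0.94, 0.93 and 0.92), which without control replicate 3 fell to ranks 74, 41 and 38.

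Genes next to the factors on the chromosome were compared where the table holds them. Uqcrq, which encodes a subunit of respiratory complex III and lies beside Gdf9 on the opposite strand, had a level of 11.15 ± 0.31 and 11.11 ± 0.15, and an r of 0.36 with Gdf9. On its other side Gm10447, at 2.93 ± 0.089 and 2.89 ± 0.097, was under the filter and had an r of 0.86. Npm3, next to Fgf8, stood at 10.30 ± 0.18 and 10.28 ± 0.16 (r = 0.53 with Fgf8), and Fbxw4 on the other side at 8.73 ± 0.12 and 8.70 ± 0.052 (r = 0.64). Mrpl16, beyond Oosp3, had an r of 0.38 with it and Ms4a6d, beyond Oosp2, of 0.44. Both were below the 0.83 to 0.88 seen among the 3 Oosp genes over the 10 libraries. The values among the Oosp genes were 0.73 to 0.80 without control replicate 3. Ms4a6d stood near the filter of 3.32, at 3.70 ± 0.14 and 3.86 ± 0.15. Oosp1 itself was more like Gdf9 on chromosome 11 (r = 0.92, rank 48) than like Oosp2 (rank 103) or Oosp3 (rank 109). Over the 10 libraries Oosp2 and Oosp3 were more like Oosp1 (ranks 16 and 22) than like Gdf9 (ranks 72 and 113). Without control replicate 3 this order held for Oosp2 (r = 0.80 with Oosp1 and 0.74 with Gdf9). For Oosp3 it turned, with r = 0.73 for Oosp1 and 0.74 for Gdf9. Bmp15 had r values of 0.18 with Nudt10 and -0.10 with Shroom4. The transcripts of 5 factors matched no other gene's transcripts at 95% identity over 50 bases or more, and Oosp3 had such a match of 61 bases with Gm19224, a pseudogene that overlaps its gene model. Reads of overlapping genes on opposite strands cannot be told apart unless counting used the strand, which is not given in the sources used here.

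Because the factors moved together, the promoters that RefSeq gives for 3 of them are shown, from 250 bases before to 50 bases after the transcription start on the GRCm38.p6 build. Transcription factors of the oocyte known to act on such promoters include FIGLA and SOHLH1, which bind E-boxes, and NOBOX, a homeodomain protein, while NR6A1 (germ cell nuclear factor) is a repressor that binds AGGTCA elements. Each sequence is on the minus strand, read 5′ to 3′, and capitals mark the motifs searched on both strands: CANNTG, the E-box, then the homeodomain motif TAATTG, its variant TAATTA and the nuclear receptor element AGGTCA. The Bmp15 promoter lies at chrX:6320675-6320974, that of Oosp1 at chr19:11691002-11691301 and that of Oosp2 at chr19:11660510-11660809.
Bmp15: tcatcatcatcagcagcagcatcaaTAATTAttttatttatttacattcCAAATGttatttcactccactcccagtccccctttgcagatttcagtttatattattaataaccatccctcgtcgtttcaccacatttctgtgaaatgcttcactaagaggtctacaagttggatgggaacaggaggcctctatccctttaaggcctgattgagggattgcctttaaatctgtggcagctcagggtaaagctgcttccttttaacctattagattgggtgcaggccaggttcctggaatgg
Oosp1: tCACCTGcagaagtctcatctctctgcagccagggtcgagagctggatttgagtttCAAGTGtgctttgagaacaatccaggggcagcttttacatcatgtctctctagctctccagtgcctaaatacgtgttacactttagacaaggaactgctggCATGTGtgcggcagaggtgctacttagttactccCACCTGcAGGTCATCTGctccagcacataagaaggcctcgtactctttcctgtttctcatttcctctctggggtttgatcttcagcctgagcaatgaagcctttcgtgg
Oosp2: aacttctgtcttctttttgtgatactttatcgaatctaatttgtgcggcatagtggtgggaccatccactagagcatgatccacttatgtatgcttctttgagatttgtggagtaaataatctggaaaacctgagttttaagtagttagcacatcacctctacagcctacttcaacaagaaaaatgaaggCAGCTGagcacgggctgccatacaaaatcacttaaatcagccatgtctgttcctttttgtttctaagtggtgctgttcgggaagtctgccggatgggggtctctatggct

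The Oosp1 promoter held 5 E-box matches, starting 249, 194, 93, 59 and 48 bases before the transcription start, and an AGGTCA match at 52 bases that overlaps the last of them. Bmp15 had 1 E-box match at 201 bases and 1 TAATTA match at 225 bases, and Oosp2 had 1 E-box match at 60 bases. TAATTG was found in none of the 3 windows. Matches of this kind are common: of 32851 RefSeq promoters of the same length 72.3% held a CANNTG, 8.0% a TAATTG, 5.29% a TAATTA and 16.3% an AGGTCA. They describe the letters and show no binding.

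None of the regulators was called between the groups. Nobox stood at 8.93 ± 0.39 and 8.92 ± 0.46, and Figla at 5.36 ± 0.48 and 5.16 ± 0.23. Sohlh1 was at 5.46 ± 0.69 and 5.50 ± 0.39, and Lhx8, a LIM homeodomain factor of the oocyte, at 7.66 ± 0.28 and 7.55 ± 0.37. These 4 are also oocyte markers, so their slopes on the marker level are not read here. Taf4b, a germ cell subunit of TFIID, was at 10.23 ± 0.30 and 10.37 ± 0.15, and Tbpl2, the TBP paralogue of the oocyte, at 4.74 ± 0.14 and 4.75 ± 0.20. Nr6a1 stood at 8.40 ± 0.090 and 8.47 ± 0.15, and Sohlh2, at 2.95 ± 0.19 and 2.86 ± 0.14, was under the filter. Of the 7 regulators tested 4 were higher on average in Uba3 cKO libraries and 3 lower, with a median difference of 0.0036 and 0 at an unadjusted p under 0.05 by limma.

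Of 3 other ligands that oocytes are known to make, 1 was called with a positive slope on the oocyte marker level, a call made for 2.22% of all genes. Rspo2, a WNT agonist, stood at 9.42 ± 0.24 and 9.46 ± 0.28 and rose with the oocyte marker level with a slope of 0.73 (adjusted p = 0.0124 by limma). Bmp6 was at 10.42 ± 0.11 and 10.31 ± 0.12 with a slope of 0.064 (adjusted p = 0.818), and Jag1, a Notch ligand, at 9.22 ± 0.11 and 9.16 ± 0.097 with a slope of 0.22 (adjusted p = 0.292). Neither of the latter was called. By group 0 of these 3 ligands were called or at an unadjusted p under 0.05. Among 4 convertases that cut proproteins, Furin stood at 11.45 ± 0.051 and 11.39 ± 0.059 and Pcsk6 at 9.55 ± 0.35 and 9.74 ± 0.51. Pcsk7, at 8.75 ± 0.020 and 8.80 ± 0.024, was the only gene of the pathway lists whose groups did not overlap, which 0.320% of all genes did not either. Its log2 difference was 0.043 (standard error 0.056, unadjusted p = 0.455 by limma).

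Receptors and SMADs carry the GDF9 and BMP15 signal in granulosa cells. Bmpr2, the type 2 receptor of both ligands, stood at 13.79 ± 0.29 and 13.71 ± 0.20. Tgfbr1, the type 1 receptor of GDF9, was at 11.55 ± 0.22 and 11.57 ± 0.15, and Bmpr1b, that of BMP15, at 12.35 ± 0.26 and 12.30 ± 0.25. Acvr1, a further type 1 receptor, was at 8.22 ± 0.061 and 8.17 ± 0.097. The smallest p-values belonged to Smad7 (10.39 ± 0.19 and 10.14 ± 0.24, difference -0.25, unadjusted p = 0.0538 by limma), Smad6 (9.41 ± 0.27 and 9.14 ± 0.22, difference -0.27, unadjusted p = 0.0628) and Smad9 (8.08 ± 0.15 and 7.93 ± 0.23). Smad6 and Smad7 encode inhibitory SMADs that the pathway induces. None was called. Over all 15 genes 6 had the higher mean and 9 the lower, with a median of -0.016 and 0 at an unadjusted p under 0.05.

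Extracellular antagonists gave 4 higher and 5 lower means among 9 genes, with a median of -0.047. Noggin (Nog) stood at 7.46 ± 0.25 and 7.24 ± 0.33, chordin (Chrd) at 4.74 ± 0.13 and 4.82 ± 0.056, and Bmper at 8.13 ± 0.26 and 8.005 ± 0.11. The BMP response genes gave 1 higher and 3 lower means of 4, with Id4 at 5.78 ± 0.18 and 5.62 ± 0.095, Id2 at 9.24 ± 0.37 and 9.02 ± 0.28 and Id3 at 12.42 ± 0.19 and 12.45 ± 0.18. In both lists 0 genes were called and limma gave 0 with an unadjusted p under 0.05.

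On the FGF8 side the more abundant of the 4 receptors were Fgfr1, at 9.56 ± 0.17 and 9.63 ± 0.24, and Fgfr2, at 9.13 ± 0.28 and 9.20 ± 0.30. Fgfr3 was at 5.38 ± 0.085 and 5.31 ± 0.17, and Fgfr4 at 5.81 ± 0.29 and 5.89 ± 0.21. Feedback genes of FGF signalling included Spry4, an inhibitor of receptor signalling, at 8.76 ± 0.29 and 9.001 ± 0.12 (difference 0.24, unadjusted p = 0.0673 by limma), and Etv4, an ETS transcription factor, at 4.35 ± 0.16 and 4.48 ± 0.12. Of 16 genes in this list 12 were higher on average in Uba3 cKO libraries and 4 lower, with a median of 0.043, 0 called and 0 at an unadjusted p under 0.05. Without 1 library the median ran from -0.014 to 0.070.

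None of the follicle genes known to answer to the oocyte was called between the groups. Of 16 granulosa genes known to be raised by oocyte factors 9 had the higher mean and 7 the lower, with a median of 0.0063. Npr2, the receptor that keeps cyclic GMP high in cumulus cells, was at 12.21 ± 0.11 and 12.30 ± 0.044, the glycolytic enzyme Aldoa at 13.35 ± 0.15 and 13.24 ± 0.082, and Fdps of cholesterol synthesis at 10.29 ± 0.22 and 10.39 ± 0.11. Of genes known to be lowered by oocyte factors, Kitl, the granulosa ligand of the KIT receptor, was at 10.29 ± 0.10 and 10.37 ± 0.40, Cyp11a1 at 9.22 ± 0.76 and 9.10 ± 0.51 and Lhcgr at 6.78 ± 0.48 and 6.73 ± 0.37. The cumulus expansion genes matched had means below that of Fgf8, and no hormone-stimulated ovaries were measured beside them. Has2, the hyaluronan synthase of the expanding cumulus, was at 3.89 ± 0.14 and 3.92 ± 0.13, Ptx3 at 5.33 ± 0.16 and 5.44 ± 0.21 and Btc at 5.61 ± 0.23 and 5.73 ± 0.17. Of the 6 expansion genes matched, 3 were under the filter. In these 3 lists 0 genes were called and limma gave 0 with an unadjusted p under 0.05.

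**Figure D5:**
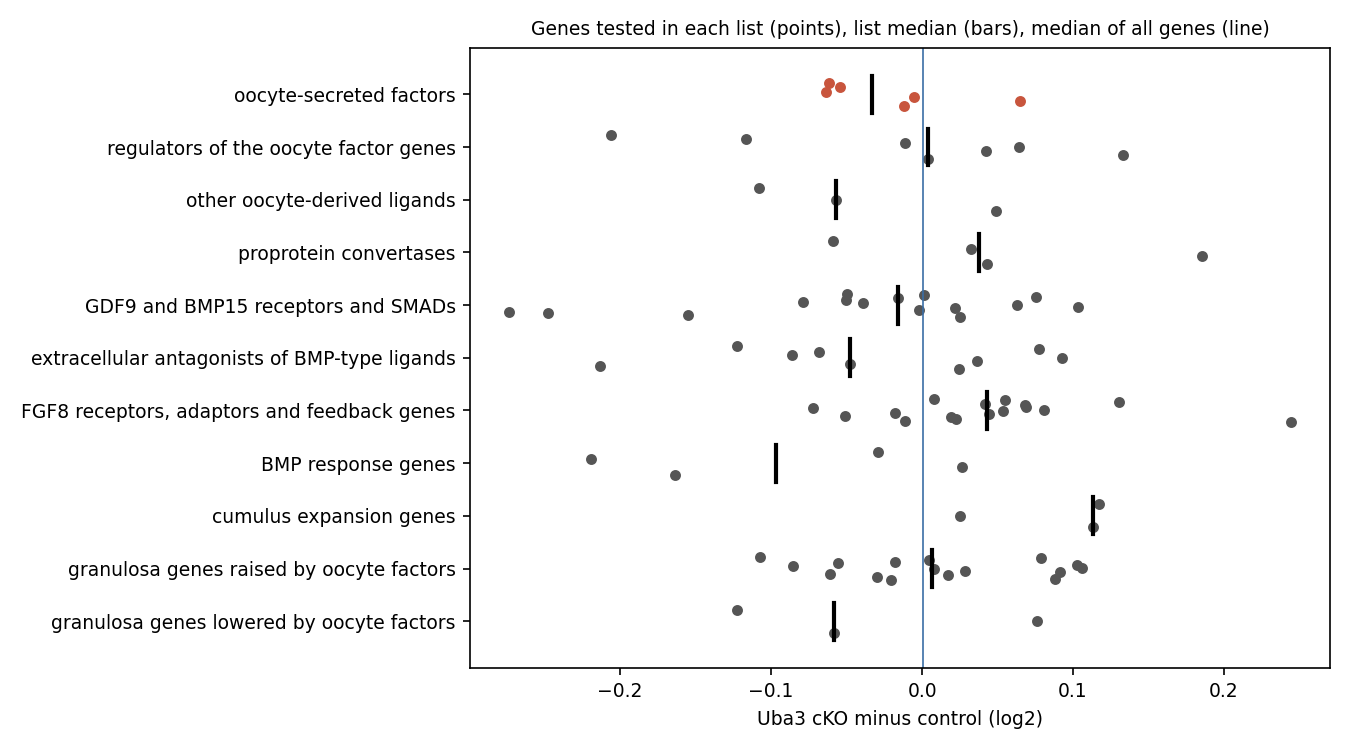
Log2 difference, Uba3 cKO minus control (x axis), of each gene tested (points) in the 6 secreted factors (red) and 10 lists of their pathway (grey), with list medians as black bars and the median of all genes, 0.00034, as a blue line. No gene is called, and the secreted factors lie between -0.064 and 0.065.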

How the data were processed

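RNA of 10 whole ovaries was measured, 5 per group. The authors deposited 1 table of normalized log2 values for 22891 genes, from -0.21 to 20.19; the transform is not named in it. The tools fastp, STAR, featureCounts and DESeq2 and the build GRCm39 are named without versions or roles, per the submitters' processing notes. Columns were matched to samples by the names in the labels. Symbols were found for 22188 genes. The design had foreseen linear values; its tests were applied to the log2 values as deposited, with no pseudocount. Genes with a linear mean of at least 10 (3.32 on the log2 scale) were kept, 15629 in all. Groups, slopes and their interaction were fitted by limma 3.58.1 (R 4.3.3), using the mean-variance trend and Benjamini-Hochberg adjustment over all genes tested, threshold 0.05. The fits of group and of slope were tested on simulated data. The interaction and the difference at equal oocyte marker level were not. Single values and ratios were compared by exact two-sided permutation (scipy 1.17.1). Transcripts were compared with blastn 2.17.0.

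Members and lists were chosen with earlier results of these data known. Of 162 list entries 161 were matched, in 9 marker lists and 10 pathway lists. Named genes were the 6 factors, the regulators, chosen receptors, the 3 smallest p-values of each pathway list, the 3 genes most like each factor among those with a log2 mean of at least 8, and chromosomal neighbours. Alternatives changed the filter, trend, weights, scaling, covariate, block, marker set and libraries. The depth per library is unknown, so no counting error is given.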

Additional observations from a re-analysis of the deposited data

Results flagged for a closer look

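Fgf8 in control replicate 3 read 6.43, with a gap to the next control of 0.761 of the range of the 5 controls, above the limit of 0.71 for a sample far from the others. It was the only value past that limit in 22 groups of 5 values, made up of the 6 factors and 5 ratios in each group; chance alone is expected to pass about 1 group in 20. The same library had the highest value of the other 5 factors and the steepest slope on transcript length, -0.15, and the part of that slope in the Fgf8 value was not tested.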

How the results depend on the processing

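The group differences of the 6 factors were small beside their errors, so their signs depended on the setting while none was called in any. With library quality weights the sign turned for Fgf8 (0.028), Oosp1 (0.10), Oosp3 (0.061) and Uba3 (-0.048), and with the length slope as covariate for Oosp1 (0.066), Oosp3 (0.029) and Uba3 (-0.015). With that covariate 1 gene of all, none of the 6 factors, was called lower, also at equal oocyte marker level. Leaving out 1 library, the differences ran from -0.16 to 0.029 for Gdf9, -0.15 to 0.012 for Bmp15, -0.11 to 0.071 for Fgf8, -0.12 to 0.17 for Oosp1, -0.014 to 0.16 for Oosp2, -0.10 to 0.11 for Oosp3 and -0.056 to 0.066 for Uba3. At equal marker level they ran from -0.10 to 0.058 for Fgf8, -0.029 to 0.12 for Oosp1 and -0.073 to 0.090 for Oosp3; with the median of the markers Oosp1 gave -0.021 and Oosp3 -0.021. The ratios to Gdf9 differed by -0.040 to 0.044 for Bmp15, -0.062 to 0.082 for Fgf8 and 0.018 to 0.14 for Oosp1, and those to Oosp1 by -0.0064 to 0.16 for Oosp2 and -0.079 to 0.061 for Oosp3.

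With the marker level taken from Zp1, Zp2 and Zp3 alone, the slopes of Bmp15 (0.47, adjusted p = 0.0523 by limma) and Oosp1 (0.62, adjusted p = 0.185) were no longer called, and 159 genes were called positive and 10 negative; the cause was not tested. The median of the markers gave 188 negative calls and the length covariate 82. Leaving out 1 library gave 91 to 322 positive and 6 to 55 negative calls, the fewest without Uba3 cKO replicate 5, and slopes of 0.52 to 0.67 for Bmp15. The labels do not say whether the replicate numbers pair the samples. Same-numbered libraries had correlations of deviations of -0.34, 0.20, 0.099, 0.034 and 0.32 over 9207 genes. Those of other-numbered libraries ran from -0.36 to 0.53, the highest for control replicate 3 with Uba3 cKO replicate 1. Most libraries were most like a library of another number. These correlations cannot settle the pairing, since differences in oocyte content also enter them. With the replicate block the slopes were 0.94 for Gdf9, 0.69 for Bmp15 and 1.11 for Oosp1, none called (adjusted p = 0.0578, 0.137 and 0.0578 by limma), with 34 positive and 3 negative calls over all genes in a fit with fewer residual degrees of freedom; no group difference was called with it. Leaving out 1 library, the medians kept their sign for the other ligands, the antagonists, the BMP response genes and the cumulus expansion genes. Those of the other pathway lists changed sign in some fits. They ran from -0.068 to 0.10 for the regulators and from -0.00097 to 0.075 for the convertases. For the receptors and SMADs they ran from -0.070 to 0.016, and for the FGF8 list from -0.014 to 0.070. Granulosa genes gave -0.029 to 0.042 where raised by oocyte factors and -0.16 to 0.14 where lowered. No pseudocount alternative could be run on log2 values.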
